A study of Mus musculus with 477 samples.

Results

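The genes described here are 47 genes of DNA replication and S phase, chosen by name from the 21004 genes of the count table. All 47 were in the table, and they were grouped by role into 10 sets, from the proteins that license replication origins to the cyclins that open S phase. Single cells had been captured on Fluidigm C1 chips, which hold each cell in its own chamber, and read as full-length cDNA. The labels placed the cells in 10 groups from 11 female mice, and the mouse was the replicate. The values are CPM, counts scaled to a common total (1e6) for a mouse or for a cell.

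Every mouse carried MMTV-Cre, a recombinase under a mouse mammary tumor virus promoter that acts in mammary epithelium, with floxed Brca1 alleles (MMTV-Cre; Brca1 fl/fl, called Br), with floxed Trp53 (MMTV-Cre; Trp53 fl/+ in the methods, called 53) or with both (called Br53). The labels name no alleles. The methods of the study give Trp53 fl/+, while a supplementary legend gives Trp53 fl/fl, so the number of floxed Trp53 alleles in these mice is uncertain. No mouse without floxed alleles was included. The ROSA mT/mG reporter marked cells in which Cre had acted, and the background was a mix of C57BL/6 and 129/Sv. Luminal cells (L) came from virgin (v) mice or from mice at pregnancy (p) day 12.5, aged 3 to 4 months, and were sorted as live cells with high CD24, low CD29 and the green reporter. Tumor cells (T) were sorted as live CD24+ cells without a gate on the reporter. The groups were vBrL, vBr53L and v53L (virgin), pBrL, pBr53L and p53L (pregnant) and the tumors BrT1, BrT2, Br53T1 and Br53T2. Only pBrL came from 2 mice (pBrL-1, pBrL-2) and every other group came from 1, so a genotype at one stage mostly rests on a single mouse.

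DNA is copied once per cell cycle. In G1 the origin recognition complex, CDC6 and CDT1 load the ring of MCM proteins onto origins, and geminin later blocks loading. CDC45 and the GINS proteins turn the ring into an active helicase. DNA polymerase alpha with its primase starts each strand, polymerases delta and epsilon extend it on the PCNA clamp, and RPA covers the exposed single strand. Ribonucleotide reductase and thymidylate synthase supply the nucleotides. Most of these genes are transcribed around the G1 to S transition by E2F factors, and their mRNA is a usual mark of dividing cells. In the mammary gland the luminal epithelium divides most during pregnancy.

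The start sites of these genes were searched for the letters that E2F factors are known to bind. The search was made after most of the members were seen to be low together in one mouse. The part of E2F factors in that mouse was not tested. RefSeq windows on GRCm38.p6, from 250 bases before the start to 50 after it, were held for 38 of the 47 genes, in 44 windows. The strings TTTCCCGC, TTTCGCGC, TTTGCCGC and TTTGGCGC on either strand occurred in 14 of the 44 windows (31.8%), in 744 of all 32851 windows (2.26%) and in 3.66% of the windows of genes tested below. The stretches shown are those of the 10 genes with a match before the start, 5′ to 3′ on the strand of the gene, with the matched letters in capitals, and Cdt1, Mcm3, Pold1 and Pole2 matched only after it. In Mcm5 and in the more distant Mcm6 stretch, matches on both strands overlap. The Mcm5, Mcm6 and Pola1 stretches lay outside the gene as GENCODE vM21 draws it, and the others lay partly or wholly within it. No windows were held for Gmnn, Mcm4, Gins1, Gins2, Gins4, Prim2, Pole, Rfc2 and Ccne2.
Mcm5 (chr8:75109345-75109374, plus strand): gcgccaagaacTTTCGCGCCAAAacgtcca
Mcm6 (chr1:128359797-128359826, minus strand): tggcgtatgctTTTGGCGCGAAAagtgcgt
Mcm6, nearer the start (chr1:128359734-128359763, minus strand): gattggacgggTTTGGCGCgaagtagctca
Pola1 (chrX:93632275-93632304, minus strand): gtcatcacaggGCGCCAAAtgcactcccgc
Cdc6 (chr11:98908002-98908031, plus strand): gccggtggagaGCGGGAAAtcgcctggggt
Gins3 (chr8:95633507-95633536, plus strand): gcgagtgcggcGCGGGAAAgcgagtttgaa
Orc1 (chr4:108579416-108579445, plus strand): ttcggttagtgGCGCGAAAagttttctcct
Rfc3 (chr5:151651209-151651238, minus strand): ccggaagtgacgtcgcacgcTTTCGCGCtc
Mcm7 (chr5:138172030-138172059, minus strand): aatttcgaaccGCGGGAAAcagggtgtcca
Uhrf1 (chr17:56304117-56304146, plus strand): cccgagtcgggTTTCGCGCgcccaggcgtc
Dnmt1 (chr9:20952824-20952853, minus strand): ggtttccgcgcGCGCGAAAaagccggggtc

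The first matched letter lay 153 bases before the start in Mcm5, 110 and 47 in Mcm6, 138 in Pola1 and in Cdc6, 41 in Gins3, 27 in Orc1, 10 in Rfc3, 165 in Mcm7, 185 in Uhrf1 and 219 in Dnmt1. The CCAAT string, a common promoter element, was in 63.6% of the member windows and in 37.4% of all windows. The CHR strings TTTGAA and TTCGAA, known from genes of G2 and mitosis, were in 18.2% of the member windows and in 19.2% of all windows. A match describes the letters of a window and is not a measured binding site. Most of these genes are known E2F targets and were chosen by name, so their higher share of E2F letters is no test.

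Reads per cell ranged from 170209 to 3550564, and reads on the 47 genes from 25507 in v53L to 353640 in BrT1. All 47 genes had a read in 9 mice, 46 in p53L and 42 in v53L. They lie on 16 chromosomes. The targeted genes could not check the labels, since the table counts whole genes and not the deleted exons. Brca1 ranged from 1.70 to 57.2 CPM and Trp53 from 5.05 to 515 CPM. Summed keratin and adhesion markers of luminal cells (Krt8, Krt18, Krt19, Epcam, Cdh1, Cd24a) lay between 8660.4 and 13700.2 CPM in the luminal mice and between 4669 and 6578 CPM in 3 tumors, but at 846 CPM in BrT1, where 7 fibroblast markers summed to 5038 CPM. Of that sum 4356 CPM came from Dcn, which was also at 711 CPM in vBrL and 579 CPM in vBr53L, and Lum had no read. The other 5 were also highest in BrT1, among them Pdgfra at 105 CPM (at most 6.51 in the other mice) and Pdgfrb at 83 CPM (at most 4.81). The study classed this tumor as mesenchymal like and reported the mesenchymal marker Vim as high in nearly all of its cells. Summed endothelial markers stayed at or under 9.62 CPM in all 11 mice. The luminal library v53L stood apart: 6 markers of hormone-sensing luminal cells (Esr1, Pgr, Prlr, Foxa1, Areg, Cited1) summed to 5064 CPM there and to at most 1760.4 CPM in the other luminal mice, its cells had the lowest median of detected genes (3672.5), and basal markers were at 0. Br53T2 held 5335 CPM of 6 basal markers, against at most 375 CPM in the other mice, and pBr53L held 269 CPM of 6 immune markers, against at most 64.7 CPM. The part of these markers in the results was not tested.

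The summed level of the 47 genes varied widely between mice of one stage. Among the virgin mice, vBrL had 2356, vBr53L 3201 and v53L 632 CPM. In the pregnant mice it was 1691 CPM in pBrL-1, 2688 in pBrL-2, 1984 in pBr53L and 1726 in p53L. Among the tumors, BrT1 had 3904, BrT2 1809, Br53T1 1819 and Br53T2 2329.9 CPM. The virgin mice averaged 2063 ± 1309 CPM (SD, n = 3; 2778 ± 598 without v53L, n = 2), the pregnant mice 2022 ± 463 (n = 4) and the tumors 2465 ± 989.5 (n = 4). Without BrT1 the tumors averaged 1986 ± 298 CPM (n = 3), within the range of the luminal mice. BrT1 was the highest mouse and v53L the lowest, and the other 9 mice lay between 1691 and 3201 CPM in no order of stage.

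**Figure D1:**
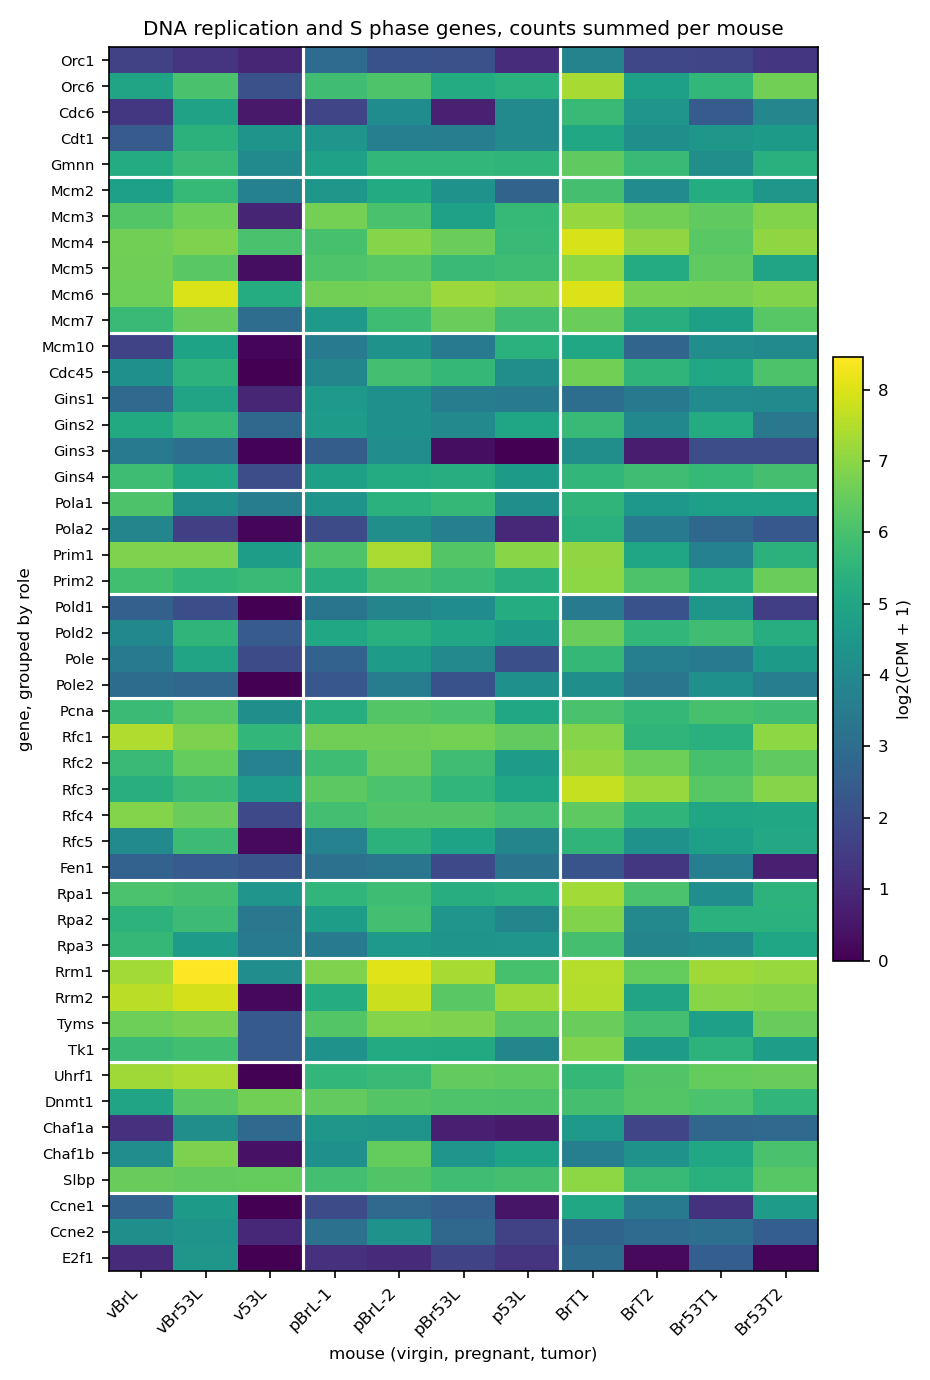
Level of each of the 47 genes (rows, grouped by role) in each of the 11 mice (columns, virgin, pregnant and tumor mice divided by white lines) as log2(CPM + 1) of counts summed per mouse. The column of v53L is dark for most genes but not for Dnmt1, Slbp, Mcm4 and Prim2, and BrT1 holds the highest level of 26 genes.

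BrT1 held the highest level of 26 of the 47 genes (55.3%), against 19.4% of the 8886 genes that averaged 10 CPM or more. The mouse vBr53L held the highest level of 10 (21.3%, against 8.70% of those genes). The lowest level was in v53L for 35 genes (74.5%, against 17%). Of the other mice, Br53T1 held the lowest level of 5, p53L of 4, vBrL of 2 and Br53T2 of 1.

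Levels between genes were compared per kilobase of annotated exon (GENCODE vM21), as the mean over the 11 mice. The length was all annotated exon of a gene, and the lengths of the transcripts in these cells were not measured. The order therefore depends in part on the annotation. Before division by length Rrm1 was highest, at a mean of 153 CPM over 11012 exon bases, against 124 CPM over 2771 for Rrm2. Per kb of annotated exon, Rrm2, the small subunit of ribonucleotide reductase, was highest at 44.6 CPM per kb. It was followed by the clamp loader subunit Rfc4 (39.4), Mcm4 (30.2), Gins4 (29), Gmnn, which encodes geminin (28.7), and Mcm6 (28). The lowest were Orc1 (1.00 CPM per kb), Chaf1a (1.07), E2f1 (1.17) and Pola2 (1.19). The range within one complex was wide, since Mcm2, a partner of Mcm4 and Mcm6 in the same ring, stood at 3.97 CPM per kb. Of the 47 genes, 18 overlap a gene on the other strand (among them Orc6 with Vps35, Cdc45 with Ufd1, Rfc4 with Eif4a2 and Mcm7 with Cops6), and the use of strand in counting was not given in the sources used here, so reads of the pairs cannot be told apart.

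Origin licensing genes were highest in BrT1 as a set, at 341 CPM for 5 genes, against 39.9 to 187 CPM in the other mice. Orc6, a subunit of the origin recognition complex, was at 29.9, 64.9 and 3.32 CPM in vBrL, vBr53L and v53L. It was at 57.1, 68.9, 36 and 41.2 CPM in pBrL-1, pBrL-2, pBr53L and p53L, and at 161, 26.3, 47.6 and 101 CPM in BrT1, BrT2, Br53T1 and Br53T2. The tumors spanned the whole luminal range above v53L. Cdc6, which helps to load the MCM ring, was at 51.7 and 20.3 CPM in the 2 Br tumors and at 4.50 and 14.2 CPM in the 2 Br53 tumors.

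The 6 MCM genes summed to 345 to 674 CPM in the luminal mice other than v53L (122 CPM), and to 921 CPM in BrT1 against 411 to 489.9 CPM in the other tumors. Mcm6 was at 96.1, 249.7 and 36.7 CPM in vBrL, vBr53L and v53L. It was at 100.0, 102, 143 and 126 CPM in the 4 pregnant mice in the same order, and at 255, 107, 104 and 116 CPM in BrT1, BrT2, Br53T1 and Br53T2. Outside vBr53L, v53L and BrT1, the 8 remaining mice lay within 96.1 to 143 CPM. Mcm7 was at 89.4 and 91.4 CPM in vBr53L and pBr53L and at 51.4, 22.3 and 56.2 CPM in vBrL, pBrL-1 and pBrL-2. Both Br53 luminal mice lay above the 3 Br luminal mice.

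Among the helicase activators, Cdc45 was at 17.9, 43.5 and 0 CPM in the virgin mice, at 13.8, 59.8, 48.8 and 17.2 CPM in the pregnant mice and at 101, 45.3, 32 and 67.5 CPM in the tumors. No read of Cdc45 was counted in v53L, and the tumor and luminal ranges overlapped. Gins1, a GINS subunit, was at 7.32 and 9.64 CPM in the Br tumors and at 16 and 15.6 CPM in the Br53 tumors. Of the polymerase genes, Prim1, the catalytic primase subunit, was at 112, 113 and 25.8 CPM in the virgin mice, at 69.4, 166, 72.9 and 124 CPM in the pregnant mice and at 132, 30.8, 12.2 and 42.6 CPM in the tumors. Apart from BrT1, the tumors lay under every luminal mouse but v53L. Its accessory partner Pola2 was at 40.2 and 10.4 CPM in the Br tumors and at 6.10 and 3.97 CPM in the Br53 tumors.

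Pold2, an accessory subunit of polymerase delta, was at 14.3, 44.9 and 4.39 CPM in the virgin mice, at 32, 40.2, 31.7 and 23.8 CPM in the pregnant mice and at 91.2, 47.1, 57.5 and 37.8 CPM in the tumors. Pold1, the catalytic subunit, was at 4.99, 3.06 and 0 CPM in the virgin mice and at 8.69, 13.3, 16.2 and 36.9 CPM in the pregnant mice, so the stages did not overlap. Of the clamp loader genes, Rfc1, the large subunit, was at 175, 109 and 47.1 CPM in the virgin mice, at 96.9, 98.4, 103 and 84.8 CPM in the pregnant mice and at 119, 45.3, 40.1 and 127 CPM in the tumors. Rfc5 was at 54 and 28.9 CPM in vBr53L and pBr53L and at 0.149 and 13.3 CPM in v53L and p53L. Rpa1, the large subunit of the single-strand binding complex, was at 65.6, 61.7 and 20.4 CPM in the virgin mice, at 46.1, 55.9, 37.7 and 41.3 CPM in the pregnant mice and at 156, 66.1, 16.6 and 43.3 CPM in the tumors. The 2 Br tumors lay above the 2 Br53 tumors, and Br53T1 was the lowest of all mice.

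The 4 genes of nucleotide supply summed to 25.5 CPM in v53L and 754 CPM in vBr53L, the ends of their range. Rrm1, the large subunit of ribonucleotide reductase, was at 154, 350.4 and 16.8 CPM in vBrL, vBr53L and v53L, at 113, 260.3, 162 and 62.2 CPM in the pregnant mice and at 183, 87.2, 151 and 142 CPM in the tumors. The highest luminal mice exceeded every tumor. Among the genes that act on chromatin behind the fork, Uhrf1, which guides maintenance DNA methylation to the new strand, was at 151, 165 and 0.0248 CPM in the virgin mice, at 47.3, 52.5, 84.8 and 81 CPM in the pregnant mice and at 48.6, 70.6, 86.9 and 88.6 CPM in the tumors. Slbp, which binds the stem-loop of histone mRNA, was at 88.3, 84.2 and 86.5 CPM in the virgin mice and at 59.6, 69.8, 57.1 and 61.5 CPM in the pregnant mice. The stages did not overlap. Chaf1b, a subunit of the histone chaperone CAF-1, was at 109 CPM in vBr53L and 86.3 CPM in pBrL-2, and at 11.4 and 19.1 CPM in the Br tumors against 32.6 and 63.7 CPM in the Br53 tumors.

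The 3 genes of S phase entry summed to between 0.917 CPM in v53L and 64.2 CPM in vBr53L. Ccne1, which encodes cyclin E1, was at 5.34, 23.1 and 0 CPM in the virgin mice, at 2.92, 6.37, 5.05 and 0.393 CPM in the pregnant mice and at 32.2, 9.92, 1.38 and 23.8 CPM in the tumors. E2f1 was at 21.4 CPM in vBr53L and between 0 and 6.89 CPM in the other 10 mice. The spread over mice was widest for E2f1 (coefficient of variation 170%), Pola2 (116%) and Gins3 (111%).

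The virgin 53 mouse v53L had the lowest level among the 7 luminal mice for 38 of the 47 genes (80.9%), against 25.8% of the 8315 genes that averaged 10 CPM or more over the luminal mice. The median gene of the 47 was at 12.8% of the median of the other luminal mice, while the median over those 8315 genes was 90.5%. Rrm2 was at 0.124 CPM in v53L and at 36.9 to 242 CPM in the other luminal mice. Mcm5 was at 0.248 CPM against 52.3 to 98.4 CPM, and Uhrf1 at 0.0248 against 47.3 to 165 CPM. Cdc45, Pold1, Pole2, Ccne1 and E2f1 had no read there. Not every member was low. Dnmt1, the maintenance methyltransferase, was at 98.9 CPM in v53L, above the 29.6 to 84.6 CPM of the other luminal mice, and Slbp (86.5 CPM), Prim2 (52.5 CPM) and Cdt1 (19.7 CPM) were above the median of the others. Genes with the E2F letters in their window stood at a median of 9.15% of the other luminal mice (14 genes, range 0 to 146%). Genes with a window without the letters stood at 11.6% (24 genes, range 0 to 132%), so the groups overlapped throughout. The part of E2F factors in the low values was not tested. The 20 genes of a mitosis and G2/M list summed to 13.7 CPM in v53L and to 588 to 2094 CPM in the other luminal mice.

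The wide spread between mice came with a wide spread between cells. The summed CPM per cell had a median of 1094 over all cells, and a cell was called high above 3 times that median (3283 CPM). In the virgin mice the lowest, median and highest cell were at 24.4, 1251 and 14980.1 CPM (vBrL), 55.3, 1158 and 12489.8 CPM (vBr53L), and 3.67, 428 and 2201 CPM (v53L). In the pregnant mice they were at 69.9, 962 and 12716 CPM in pBrL-1, 69, 1432 and 9797 in pBrL-2, 63.3, 993 and 8180.2 in pBr53L, and 12.3, 654 and 8014 in p53L. In the tumors they were at 449, 3024 and 11938 CPM (BrT1), 50.6, 1027 and 14188 CPM (BrT2), 205, 1129 and 7214 CPM (Br53T1), and 67.3, 1118 and 21096 CPM (Br53T2). Outside BrT1 and v53L the medians of the 9 mice lay within 654 to 1432 CPM, and the highest cell of each was at 7214 CPM or more. Sums formed a range rather than separate classes, since 83 cells lay between 2 and 5 times the median.

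**Figure D2:**
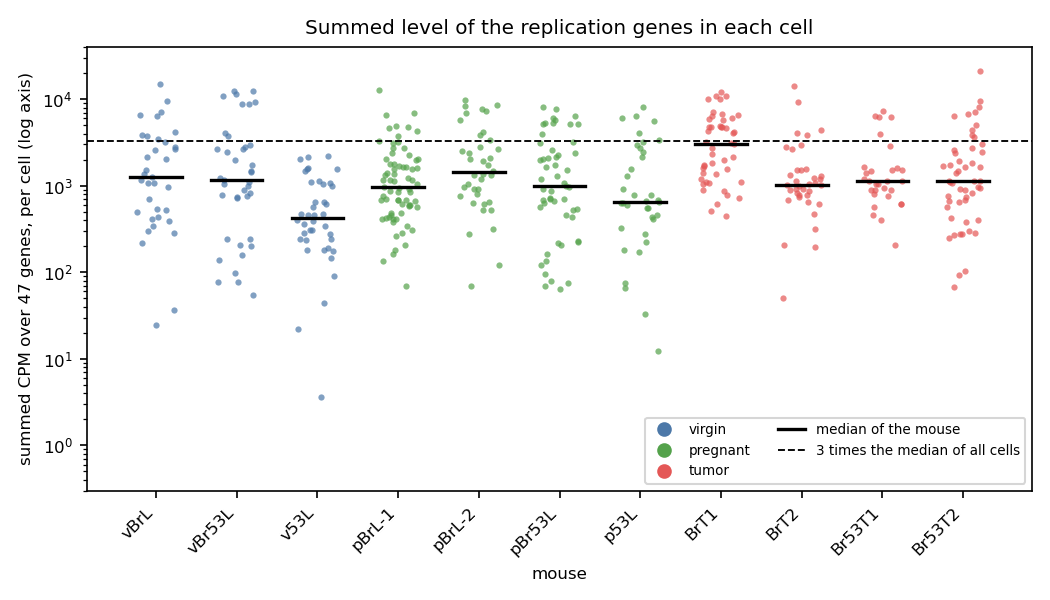
Summed CPM over the 47 genes in each cell (points, log axis) by mouse, coloured by stage, with the median of each mouse as a black bar and 3 times the median of all cells as a dashed line. No cell of v53L crosses the line, and the median bar of BrT1 lies just under it at 3024 CPM.

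High cells were found in 10 of the 11 mice. They made up 9 of 35 cells in vBrL (25.7%, exact 95% binomial interval 12.5 to 43.3%), 9 of 39 in vBr53L (23.1%, 11.1 to 39.3%) and 0 of 40 in v53L (interval 0 to 8.81%; the limit of 3 counts allows a share of up to 7.5%). In the pregnant mice they made up 9 of 71 cells in pBrL-1 (12.7%, 5.96 to 22.7%), 10 of 38 in pBrL-2 (26.3%, 13.4 to 43.1%), 11 of 53 in pBr53L (20.8%, 10.8 to 34.1%) and 6 of 36 in p53L (16.7%, 6.37 to 32.8%). In the tumors they made up 21 of 47 cells in BrT1 (44.7%, 30.2 to 59.9%), 5 of 37 in BrT2 (13.5%, 4.54 to 28.8%), 5 of 30 in Br53T1 (16.7%, 5.64 to 34.7%) and 10 of 51 in Br53T2 (19.6%, 9.82 to 33.1%). The share was 16.3 ± 14.1% in virgin mice (SD, n = 3 mice), 19.1 ± 5.83% in pregnant mice (n = 4) and 23.6 ± 14.3% in tumors (n = 4), differences smaller than the larger SD of each pair. Without v53L the 2 other virgin mice averaged 24.4%, and the tumors other than BrT1 lay between 13.5 and 19.6%. By the count of cells with a read of at least 10 of the genes after thinning, the shares were 28.7 ± 20.5% in virgin mice, 47.5 ± 12.5% in pregnant mice and 62.8 ± 21.2% in tumors. On that measure the virgin mice (5 to 41%) lay below the tumors (43.1 to 89.4%) without overlap, and the pregnant mice (30.6 to 60.5%) overlapped both. The shares were 40.5% in virgin mice without v53L and 53.9 ± 14.2% in tumors without BrT1. The median number of all genes detected per thinned cell was 2797 to 3318 in the virgin mice and 3934 to 5014 in the tumors, and its part in this order was not tested. The share was highest in BrT1, whose interval overlapped those of Br53T1 and Br53T2. Each tumor is 1 mouse and the intervals cover counting error only, so the tumors were not tested against each other, nor was the part of the markers of BrT1 in its share.

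**Figure D3:**
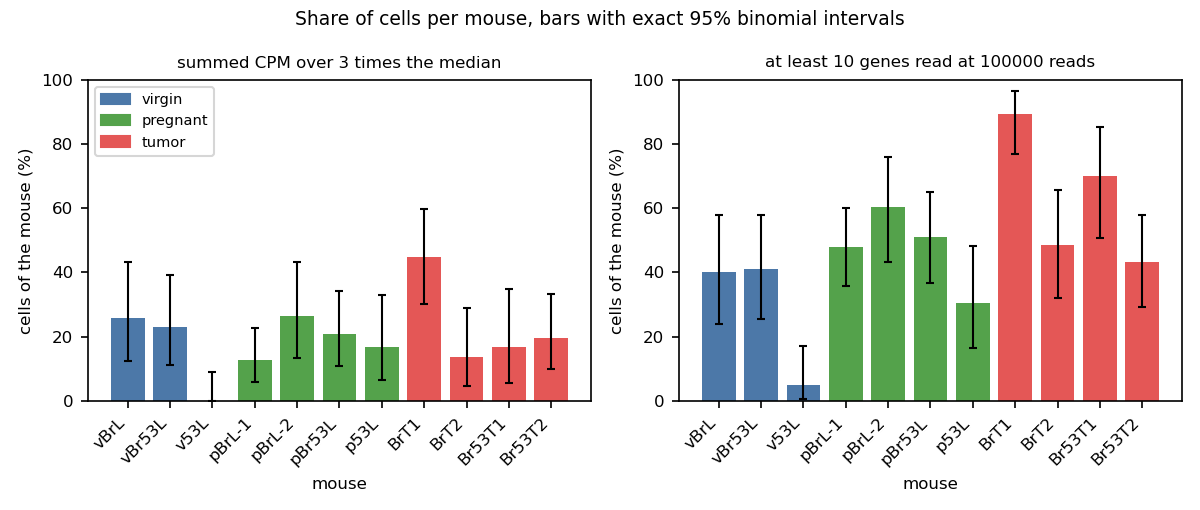
Percent of cells per mouse (bars with exact 95% binomial intervals, coloured by stage) with a summed CPM over 3 times the median of all cells (left), and with a read of at least 10 of the 47 genes after each cell was thinned to 100000 reads (right). BrT1 is highest and v53L lowest on both measures, 44.7 and 0% on the left and 89.4 and 5.00% on the right.

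The high sums were carried by many genes at once. After thinning every cell to 100000 reads, the 95 high cells held reads of a median of 30 of the 47 genes (range 3 to 41), and the 382 other cells a median of 8. Of the high cells 91 had at least 10 of the genes, as did 139 of the other cells. A single gene made up over 50% of the sum in 4 high cells: Rrm1 (98.4% of the sum of a vBr53L cell), Chaf1b (74.8%, Br53T2), Mcm6 (64.1%, BrT1) and Pcna (60.8%, pBrL-2). Mcm6 was read in 88.4% of high cells and 32.2% of other cells, Uhrf1 in 87.4 and 24.1%, Tyms in 82.1 and 23.3%, and Rrm2 in 75.8 and 12.3%. These shares describe cells that were picked on the same sum. Slbp, Dnmt1, Rfc1 and Pcna were read in 53.1, 50.5, 53.1 and 49.2% of the other cells and so were not limited to high ones. High cells carried 44.1 to 77.7% of all the summed CPM of a mouse, in the mice that had any. Among the cells that were not high, the mean sum lay within 1005 to 1214 CPM in 8 of the 11 mice, and it was 666 CPM in v53L, 884 in p53L and 1538 in BrT1.

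Within a mouse the members followed one another to different degrees. Over the cells of a mouse, the Spearman correlation of a gene with the sum of the other 46 had a median over mice of 0.59 for Uhrf1, 0.57 for Tk1 (thymidine kinase), 0.56 for Mcm5 and 0.54 for Rrm2. It was lowest for Gins4 (0.19), Ccne2, E2f1 and Orc1 (0.25 each). The cells of a mouse share a chip and differ in depth, and low counts weaken such correlations. No p-value was attached to them.

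Mitosis genes were high in most, but not all, of the high cells. A sum of the 20 mitosis and G2/M genes over 1000 CPM, a threshold set after the values were seen, was found in 66 of the 95 high cells (69.5%) and in 49 of the 382 other cells (12.8%). In BrT1 it was found in 18 of 21 high cells and 7 of 26 others, and in pBr53L in 9 of 11 high cells and 11 of 42 others. In BrT2 it was found in 1 of 5 high cells and 3 of 32 others. The median mitosis sum was higher in the high cells in all 10 mice that had them, from 145 against 31.5 CPM in BrT2 to 6012 against 290.3 CPM in BrT1. Cells high for replication alone (29) and for mitosis alone (49) were both present, and in v53L no cell passed either threshold (0 of 40, interval 0 to 8.81%).

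**Figure D4:**
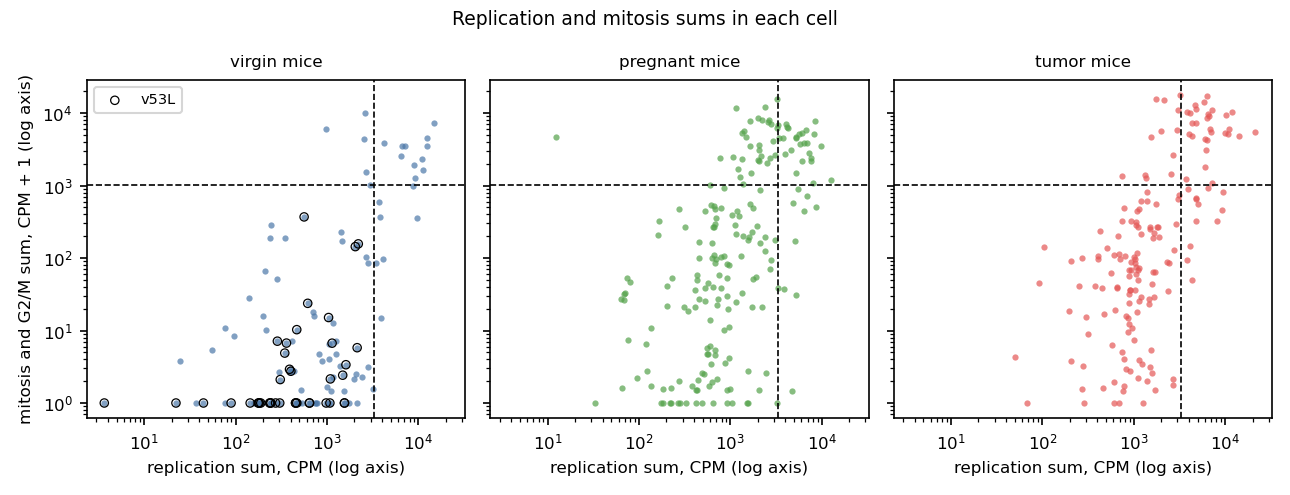
Summed CPM of the 47 replication genes (x, log axis) against the summed CPM of 20 mitosis and G2/M genes plus 1 (y, log axis), each point a cell, for virgin, pregnant and tumor mice, with dashed lines at 3 times the median replication sum and at 1000 CPM of the mitosis sum. The circled cells of v53L stay below both lines, and the upper right field holds 66 cells.

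Read the other way, replication genes were higher in cells with a mitosis sum over 1000 CPM. In the 8 mice with at least 5 such cells, 20 of the 47 genes had a higher mean CPM in them in all 8 mice. This count was not made over all genes. The median over mice of the log2 ratio of mean CPM + 1 was largest for Mcm10 (4.68), Pole (3.82) and Cdc45 (3.42), and it was 1.95 for the median gene. It was lowest for E2f1 (-0.10, higher in 4 of 8 mice), Fen1 (0.19, 5 of 8), which trims Okazaki fragments, and Ccne1 (0.28, 6 of 8). No test was made, because cells are not replicates and all these cells share mice with their comparison cells. High cells also had more detected genes than other cells in 9 of 10 mice by the median, and more reads in 6 of 10. The hormone-sensing marker sum was lower in high cells in 7 of 10 mice. Cells with a hormone-sensing sum over 1000 CPM came mostly from a few mice. Of those cells, 3 of 11 were high in vBrL (27.3%, against 25% of its other cells), 1 of 6 in vBr53L (16.7%, against 24.2%) and 3 of 23 in Br53T2 (13%, against 25%), with no test between cells. In v53L, 27 of 40 cells passed that sum, and none of these 27 or of the 13 others was high.

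The study asked how luminal cells without Brca1 differ from the tumors they give rise to. Only 1 chip, SC6, held both a tumor (Br53T2) and a luminal mouse (pBrL-2), with summed levels of 2329.9 and 2688 CPM. The design does not otherwise separate tumor from chip. For the 47 genes, the 4 tumors and the 5 Brca1-deficient luminal mice overlapped for every gene, while 5.01% of all genes tested were higher in every tumor and 2.51% lower. edgeR's quasi-likelihood test on counts summed per mouse called none of the 47 at an adjusted p under 0.05, against 79 of 12978 genes tested (0.609%). At an unadjusted p under 0.05 it gave 2 of the 47, against 13.8% of all genes. DESeq2 (3 at an unadjusted p under 0.05) and limma (2) called none of the 47 either. The median log2 fold change of the 47 was -0.09, beside 0.06 over all genes tested, and 22 estimates were above 0 and 25 below. Its sign depended on the setting, since it was 0.13 in limma, 0.08 with library size scaling, 0.02 against all 7 luminal mice and 0.17 against the 3 pregnant Brca1-deficient mice. Rfc3, a clamp loader subunit with E2F letters at its start, was at 209, 140.1, 75.5 and 119 CPM in BrT1, BrT2, Br53T1 and Br53T2 and at 39.2, 53, 79.1, 65.1 and 46.2 CPM in vBrL, vBr53L, pBrL-1, pBrL-2 and pBr53L. Its log2 fold change was 1.13 ± 0.35 (SE, adjusted p = 0.184 in edgeR), and only pBrL-1 reached a tumor. Rfc4, another subunit of the same loader, was at 80.4, 45.1, 31.2 and 31.9 CPM in the tumors and at 118, 91.9, 60.6, 70.9 and 70.8 CPM in those luminal mice, with a log2 fold change of -0.95 ± 0.38 (adjusted p = 0.302 in edgeR). Here only BrT1 lay within the luminal range. Rfc3 and Rfc4 were singled out after their values were seen, as the 2 with an unadjusted p under 0.05. All 5 genes of origin licensing and all 3 of RPA had estimates above 0, and all 5 of chromatin behind the fork had estimates below 0, but none passed the test. Leaving out BrT1 moved the median of the 47 to -0.47.

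**Figure D5:**
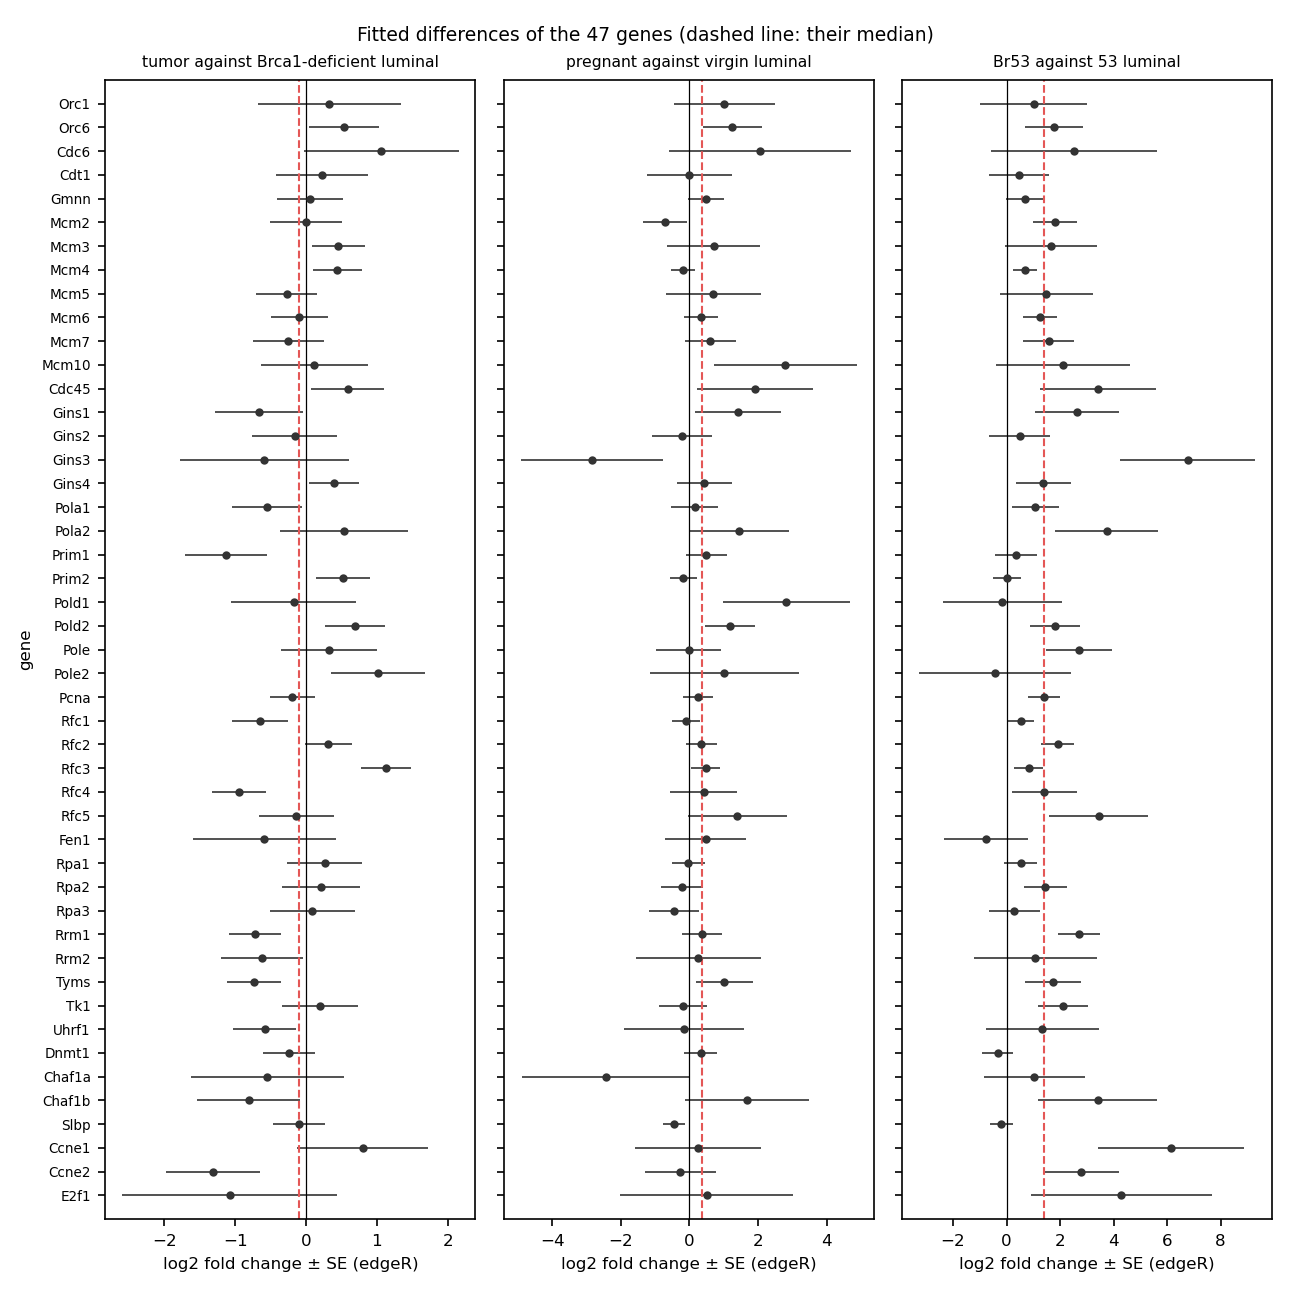
Log2 fold change with its SE (edgeR, counts summed per mouse) of each of the 47 genes in 3 comparisons, with a dashed line at the median of the genes. The medians are -0.09, 0.37 and 1.41 from left to right, and no gene passed an adjusted p of 0.05.

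Pregnancy was compared with virginity over the 7 luminal mice with genotype as a covariate. None of the 47 genes was called, against 2 of 12615 genes tested (0.0159%), and none reached an unadjusted p under 0.05, against 9.74% of all genes. DESeq2 and limma called none of the 47 either, with 1 at an unadjusted p under 0.05 in each. The median log2 fold change was 0.37, beside 0.12 over all genes, with 31 estimates above 0 and 16 below. It turned to -0.23 without v53L and to -0.22 without p53L. With genotype in the fit, leaving out either mouse removes the same pair, since the other is taken up by its genotype term. The sign thus rested on the contrast between the 53 mice, both on the chip SC9. Fitted with chip instead of genotype as the covariate, the median was 0.81, and with no covariate it was 0.03. None of the 47 was called in either fit. With chip in the fit, stage rests on the SC7 and SC9 pairs alone, since every other chip held 1 luminal mouse. Little was then left to estimate the spread. Only Pold1 was higher in every pregnant mouse than in every virgin mouse (2.13% of the 47, against 6.32% of all genes), with a log2 fold change of 2.83 ± 1.85 (adjusted p = 0.694 in edgeR). Only Slbp was lower in this way (against 5.58% of all genes), at -0.45 ± 0.32 (adjusted p = 0.727 in edgeR). Without v53L, 9 of the 47 were lower in every pregnant mouse (19.1%, against 10.5% of all genes) and 1, Pold1, was higher (against 10.4%). Within the 2 chips that held both stages the difference went opposite ways. On SC7 the summed level was 3201 CPM in vBr53L and 1984 CPM in pBr53L, and 38 of 47 genes were lower in the pregnant mouse. On SC9 it was 632 CPM in v53L and 1726 CPM in p53L, and 39 of 47 genes were higher in the pregnant mouse. The same counts were not made over all genes. Milk protein reads took 3.49 to 4.16% of the reads in virgin and 9.92 to 18% in pregnant mice. With these reads left out the sums were 2445, 3317 and 659.8 CPM in the virgin mice and 1938, 2984, 2287 and 2106 CPM in the pregnant mice, and each chip pair kept its direction. The stage means without these reads were 2140.4 ± 1354 CPM in virgin and 2329 ± 459 CPM in pregnant mice, the reverse of the order with them, and the 2 virgin mice other than v53L averaged 2881 CPM.

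The Br53 and 53 luminal mice were set against each other to see these genes with and without floxed Brca1, with stage as a covariate. The design does not separate genotype from chip here, since both Br53 luminal mice were on SC7 and both 53 luminal mice on SC9. The Br53 mice were higher without overlap for 27 of the 47 genes (57.4%, against 20.1% of all genes tested) and lower without overlap for none (against 11%). edgeR called none of the 47 and none of 13709 genes (0%), with 4 of the 47 at an unadjusted p under 0.05 (8.51%, against 4.97%): Rrm1, Rfc2, Gins3 and Pcna. DESeq2 called 3 (6.38%, against 4.25% of all genes in that fit), Ccne1, Rrm1 and Gins3, and edgeR without a filter on low counts called Rrm1 (2.13%, against 0.434%). Rrm1 stood at 350.4 and 162 CPM in vBr53L and pBr53L and at 16.8 and 62.2 CPM in v53L and p53L, a log2 fold change of 2.70 ± 0.78 (adjusted p = 0.867 in edgeR and 0.0128 in DESeq2). Ccne1 was at 23.1 and 5.05 CPM in Br53 and at 0 and 0.393 CPM in 53, E2f1 at 21.4 and 2.32 against 0 and 1.44 CPM, and Rfc5 as given above, all 3 with an adjusted p of 0.867 in edgeR. The median log2 fold change was 1.41, beside 0.08 over all genes. It was 0.39 without v53L, beside 0.37 over all genes in that fit, and 3.66 without p53L, where v53L was the only 53 mouse left and edgeR called 7 of the 47 (14.9%, against 0.796% of all genes in that fit), namely Mcm3, Tyms, Mcm5, Rrm2, Cdc45, Rfc4 and Uhrf1. Against p53L alone, both Br53 mice were higher for 30 of the 47 genes (63.8%, against 34.6% of all genes) and lower for 5 (10.6%, against 24.5%), namely Mcm10, Pold1, Prim1, Pole2 and Fen1. The size of the median difference thus depended on v53L, the library high in hormone-sensing markers and low in mitosis genes, and the part of those markers was not tested.

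Br53 and Br luminal mice were compared in the same fit. Genotype is not separated from chip here either, since both Br53 mice were on SC7 and the Br mice on SC10, SC5 and SC6. None of the 47 was called, none of 13709 genes (0%) was, and none of the 47 reached an unadjusted p under 0.05 (against 2.95%). DESeq2 called none of the 47, with 1 at an unadjusted p under 0.05. The median log2 fold change was 0.25, beside -0.04 over all genes. Mcm6, Mcm7 and E2f1 were higher in both Br53 mice than in all 3 Br mice (6.38% of the 47, against 8.24%), with log2 fold changes of 1.14 ± 0.56, 1.18 ± 0.80 and 3.72 ± 2.74 (adjusted p = 1.00 each in edgeR), and only Fen1, with group means of 3.54 and 7.46 CPM, was lower (2.13%, against 11.1%). The median went to -0.37 without vBr53L and to 0.11 without v53L, beside -0.01 over all genes in the latter fit.

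Between the 2 Br53 and the 2 Br tumors, 38 of the 47 estimates were below 0 and the median log2 fold change was -0.57, beside -0.00 over all genes. BrT1 was on SC1, BrT2 on SC4, Br53T1 on SC2 and Br53T2 on SC6, so genotype is not separated from chip. None of the 47 and none of 13477 genes was called (0%), and none of the 47 had an unadjusted p under 0.05 in edgeR (against 3.98%). DESeq2 called none, with 2 at an unadjusted p under 0.05. Without overlap 8 genes were lower in the Br53 tumors (17.0%, against 12.9%) and 3 were higher (6.38%, against 19%). Among those with a mean of at least 10 CPM in either group, Pola2, Cdc6 and Rpa1 were the furthest below 0, at -2.35 ± 1.29, -1.98 ± 1.11 and -1.93 ± 0.82, and Chaf1b, Gins1 and Uhrf1 were the higher ones, at 1.56 ± 0.89, 0.81 ± 1.23 and 0.46 ± 0.66 (all adjusted p = 1.00 in edgeR). The median became 0.17 without BrT1, beside 0.33 over all genes in that fit, so its sign rested on that tumor, while Pola2, Cdc6 and Rpa1 were still below 0, at -1.21, -1.29 and -1.31.

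Genes of neighbouring lists, written with earlier results of these data known, were set beside the members. No gene that was tested was called in any of the 5 comparisons, for lists of 31 other replication genes (30 or 31 tested), 20 mitosis genes (all tested) and 27 genes of the E2F and Rb network (25 to 27 tested). In pregnancy all 20 mitosis genes had estimates above 0, with a median log2 fold change of 2.37, while the 47 had 0.37. Of the 20, 7 had an unadjusted p under 0.05 in edgeR, against 0 of the 47 and 9.74% of all genes. Without v53L the medians were 1.36, with all 20 still above 0, and -0.23. In the tumors against luminal mice the medians were 0.09 for mitosis, -0.35 for the other replication genes and 0.27 for the E2F and Rb network, beside 0.06 over all genes. In Br53 against Br tumors they were -1.33 (19 of 20 mitosis genes below 0), -0.30 and -0.51, beside -0.57 for the 47. In Br53 against Br luminal mice the mitosis median was -0.85 (15 of 20 below 0), opposite in sign to the 0.25 of the 47, and the other lists were at -0.22 and -0.13. In Br53 against 53 luminal mice they were 1.90, 0.79 and 0.50, beside 1.41 for the 47. Without v53L they were 0.42, 0.18 and 0.50, beside 0.39 for the 47 and 0.37 over all genes.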

How the data were processed

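Processed counts were taken as deposited. The authors had trimmed the reads with sickle and Trim Galore 0.4.1, aligned them to mm10 with STAR 2.5.3a and counted reads per gene with Subread 1.5.3, and deposited whole-number counts per gene and cell without normalization. The annotation and the use of strand were not given in the sources used here. Reads carried no molecular identifiers, so PCR copies were counted, and intervals and zero limits (3 counts) cover counting error only. The chambers had been inspected by microscope, and no further cell filter or doublet call was made. The table lists 21004 genes, 1401 of them without a read.

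CPM were computed per cell and from counts summed per mouse. Summed counts were tested with edgeR 4.0.16 (R 4.3.3; filterByExpr, TMM, quasi-likelihood, Benjamini-Hochberg over all genes tested, called under 0.05), and the SE is the size of the log2 fold change over the root of F. Alternatives were RLE factors, DESeq2 1.42.0, no low-count filter, limma 3.58.1 on mean CPM per cell as log2(value + 1), other arms or covariates, each mouse left out and, chosen after seeing the data, library size scaling and the overlap counts, list medians and shares without v53L or BrT1. The code was tested on simulated data. P-values measure the spread between these mice, most of them the only one of their group. Gene positions came from GENCODE vM21 and start site windows from RefSeq, matched by symbol.

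The members, the lists and the comparisons were chosen with earlier results of these data known. Values per mouse are given for the highest gene of each role and, in each comparison, for up to 3 genes a direction with no overlap and a mean of at least 10 CPM. Others named were chosen after their values were seen, as were the 1000 CPM thresholds. Cells were thinned at random to 100000 reads to compare detected genes.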

Additional observations from a re-analysis of the deposited data

Results flagged for a closer look

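In 93 small groups of mouse values (31 quantities, being the sum over the 47 genes, the share of high cells, 10 role sums and 19 fully described genes) 10 values stood apart from their group by Dixon's test, which chance gives in about 1 in 20 groups. Among the tumors BrT1 stood apart for the MCM ring sum (921 CPM, the next 489.9), for the RPA sum (332 CPM, the next 114) and for Mcm6 (255 CPM, the next 116). Among all luminal mice vBr53L stood apart for the chromatin sum (453 CPM, the next 300.2), for the S phase entry sum (64.2 CPM, the next 26.4), for Ccne1 (23.1 CPM, the next 6.37) and for E2f1 (21.4 CPM, the next 2.32). Among the pregnant mice pBrL-2 stood apart for the RPA sum (139 CPM, the next 81.2), for the chromatin sum (300.2 CPM, the next 239) and for Chaf1b (86.3 CPM, the next 29.2).

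The log2 difference between pregnant and virgin mice in the summed level of the 47 genes was -0.69 on SC7 (Br53) and 1.45 on SC9 (53). With 1 mouse per group and stage on each chip, the difference between these was not tested.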

How the results depend on the processing

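No analysis paired by replicate number was possible, because the groups compared share at most the number 1, which names different animals in each group. Chip pairs a virgin with a pregnant mouse on SC7 and SC9, and a tumor with a pregnant luminal mouse on SC6. With chip as a block, stage rests on the SC7 and SC9 pairs alone. The pregnancy median was then 0.81 in place of 0.37 (0.03 with no covariate), with 0 called in each. The count of called genes was the same under 60 of 63 alternatives. The main fits called few genes of any kind, from 0 to 79 (0.609% of those tested), so this sameness says little. In Br53 against 53 luminal mice, where edgeR called 0, DESeq2 called 3 (4.25% of all genes), edgeR without a low-count filter called 1 (0.434% of all genes), and leaving out 1 mouse gave 0 to 7 (7 without p53L, with 0.796% of all genes). The cause was not tested. The median log2 fold change of the 47 genes moved by less than the SD between mice under all 29 alternatives that left out no single mouse, but for tumors its sign turned from -0.09 to between 0.02 and 0.17 in 4 of them. With 1 mouse left out it ranged from -0.47 to 0.13 for tumors against luminal mice, from -0.23 to 0.84 for pregnancy, from -1.01 to 0.17 for Br53 against Br tumors, from 0.39 to 3.66 for Br53 against 53 luminal mice and from -0.37 to 0.82 for Br53 against Br luminal mice. Where this left 1 mouse in an arm, that mouse was assumed to vary like the others. Library size scaling moved the median over all genes from 0.06 to 0.20 for tumors and from 0.08 to 0.20 for Br53 against 53 luminal mice.

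Mean shares of high cells in pregnant mice were 29% at 2 times the median, 10.8% at 5 times and 47.5% by at least 10 genes with a read, which gave 28.7% in virgin mice and 62.8% in tumors. Of the 44 alternative shares of single mice 33 stayed within their interval. With a mitosis threshold of 500 or 2000 CPM, 82.1 or 60% of the high cells passed it. Depth limits single-cell values, since low genes such as E2f1 were read in few cells.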
